A study of Mus musculus with 20 samples.

Results

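The regions described here set adult basal cells of the mouse mammary gland apart from 3 other normal mammary cell types in an ATAC-seq series. They comprise all 5144 regions of the deposited basal UAR list and all 71 regions of the basal URR list, on chromosomes 1 to 19 and X. These 5215 regions are part of 11322 in the UAR and URR lists of the 4 normal types. UARs are regions more accessible in the named type and URRs regions less accessible in it. The labels do not expand either abbreviation, and the reading follows from the overlaps given below. The members were chosen by the authors on the accessibility of the same samples whose peaks are described here, so what basal and other peaks show at them is a description, without a test.

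ATAC-seq marks accessible DNA with adapters inserted by the Tn5 transposase. The 4 normal types were wild-type C57BL6J cells sorted by FACS from the mammary gland, with 2 samples each: adult basal, adult luminal progenitor (LP), adult mature luminal (ML) and fMaSC, the fetal mammary stem cell population, from embryos at embryonic day 18. The surface markers of the sorts, the age of the adults, the sex of the animals and the number of animals behind a sample are not stated in the labels. The PY230 samples used below came from transplants of a mouse mammary tumour line on the C57BL6J background, sorted as luminal SOX10-high (3 samples) or luminal SOX10-low (3 samples).

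Basal cells, also called myoepithelial cells, form the outer layer of the mammary ducts and alveoli. They sit on the basement membrane and contract in response to oxytocin, which moves milk along the ducts. Keratins 5 and 14 (Krt5, Krt14), the transcription factor p63 (Trp63) and smooth muscle actin (Acta2) mark them, while luminal cells line the lumen and carry keratins 8 and 18. Because no annotation or sequence of the mm9 build was at hand, these marker genes were not located, the label was not checked against them, and regions are named by mm9 position only.

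Each pooled peak list carries a fold, the authors' enrichment of a peak over background. All 80294 basal folds were whole multiples, within 0.001 of a step, of 1 step of 0.216, so a single background value served the whole genome and no local background entered them. The step was 0.208 for LP, 0.249 for ML and 0.253 for fMaSC. If a step stands for 1 fragment of pileup, with 1 added to pileup and background as MACS2 does by default, the background was 3.64 fragments in basal cells, 3.81 in LP, 3.01 in ML and 2.95 in fMaSC. Backgrounds would then scale with the fragments counted, provided that fragments were extended alike, which is not given. LP had the highest background and the fewest peaks (60030), while basal cells had the second highest and the most peaks. Reads, counts and values of single samples were not analysed here, so replicate error is unknown and intervals cover counting error only.

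Basal UARs were broad single sites centred on a basal peak. They spanned 500 to 12700 bp with a median of 1700 bp (quartiles 1400 and 2300 bp) and covered 10.2 Mb in all. All but 2 overlapped a basal peak. A single basal peak lay in 4314 UARs, 2 peaks lay in 697 and 3 or more in 131. At the exact centre of the UAR a basal peak was present in 93.1% of regions, against 22.3% for fMaSC, 15.2% for LP and 8.46% for ML. Basal peaks also cover more of the genome, 70.4 Mb against 48.1, 47.5 and 43.9 Mb in the same order, which favours them here. Basal peaks covered a median of 67.1% of a UAR. The strongest basal peak in a UAR had a median fold of 13.4 (quartiles 9.92 and 17.5), a level that 73.0% of all basal peaks did not reach, and it lay below the median of the whole basal list (7.98) in 559 UARs.

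**Figure D1:**
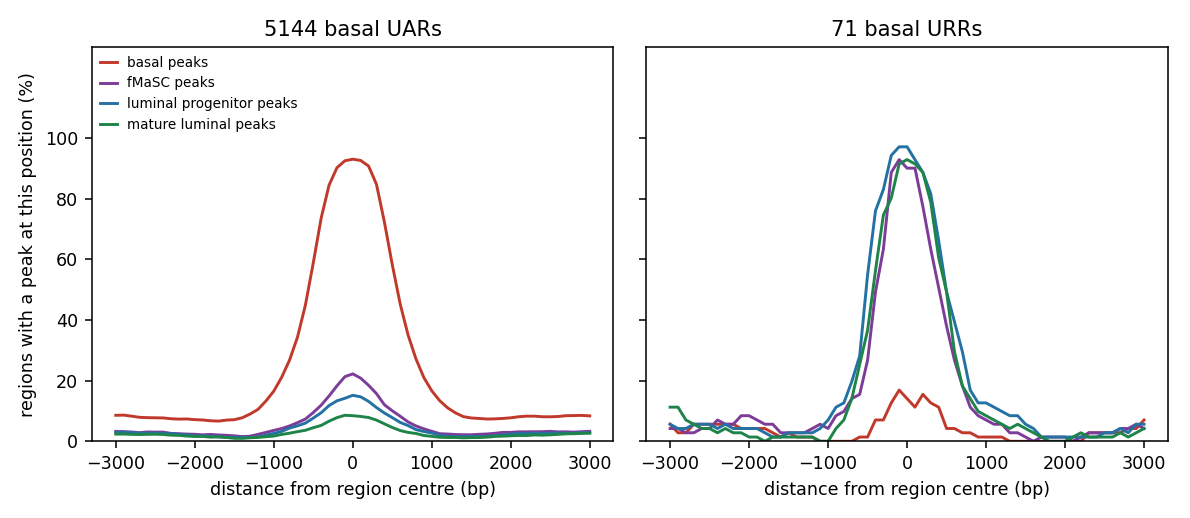
Share of basal UARs (left) and basal URRs (right) with a peak of each normal cell type at a given distance in bp from the centre of the region; each line is 1 pooled peak list. Basal peaks stand over UARs at 93.1% of centres and over URRs at 14.1%, while the peaks of the other 3 types do the reverse.

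Weak basal peaks rarely lay in a UAR, and strong ones usually did where no other type had a peak and seldom where one did. Of all basal peaks, 6157 (7.67%) overlapped a UAR. Among the 19944 basal peaks without an overlapping peak in another type, 17.2% overlapped a UAR. This share was 4.23% (95% exact interval 3.80 to 4.70%) below a fold of 5 and 33.6% (31.8 to 35.4%) from 7.5 to under 10. It reached 75.9% (73.7 to 78.0%) from 10 to under 15 and 95.2% (92.1 to 97.4%) from 15 to under 20. Over all basal peaks, shared or not, the share went up to 14.7% (14.0 to 15.5%) from 15 to under 20 and was 1.65% (0.793 to 3.01%) at a fold of 30 and over. At a fold of at least 10, 79.6% of basal-only peaks (1525 of 1915) and 8.38% of shared peaks (2480 of 29577) lay in a UAR, so shared peaks still made up 61.9% of the 4005 peaks of that strength in UARs. The strongest basal peaks were shared ones: of 607 with a fold of 30 or more, 1 had no peak in another type. Basal-only peaks that stayed outside UARs numbered 16511 and were low and narrow, with a median fold of 5.17 and a median width of 393 bp, against 9.48 and 790 bp for the 3433 inside.

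**Figure D2:**
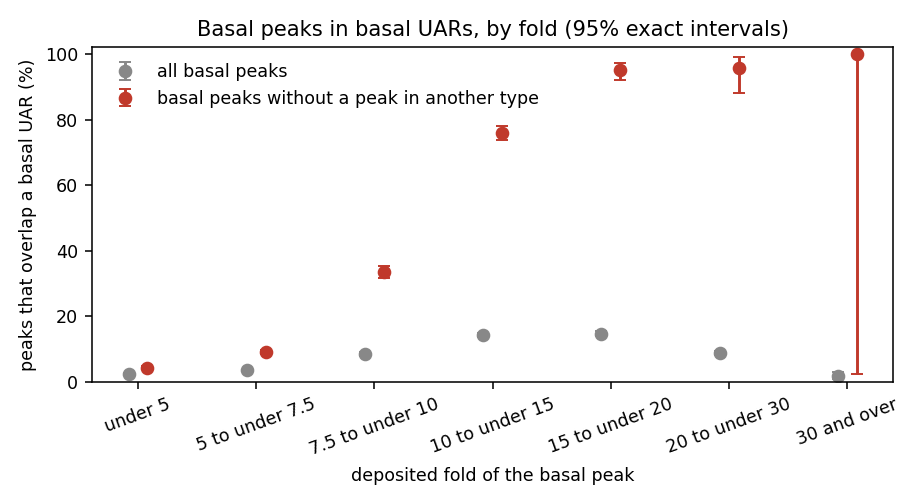
Share of basal peaks that overlap a basal UAR (vertical axis, percent) by the deposited fold of the peak (horizontal axis); grey points are all basal peaks, red points those without a peak in another normal type, and bars are 95% exact intervals. Red points climb from 4.23% to over 95%, while grey points turn down to 1.65% at the highest folds, and the last red point rests on 1 peak.

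Peaks seen in 1 type alone with a fold of at least 10 entered the UAR list of their own type in 79.6% of basal cases (1525 of 1915, interval 77.8 to 81.4%). For LP this was 72.5% (103 of 142, 64.4 to 79.7%), for ML 58.1% (1456 of 2505, 56.2 to 60.1%) and for fMaSC 51.0% (705 of 1383, 48.3 to 53.6%). These folds sit on different backgrounds, so the shares are given side by side without a test.

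UARs fell into a group where basal cells alone had a peak and a group where another type had one too. In 2614 UARs (50.8%) no other type had a peak. These had a median width of 1400 bp and a median basal fold of 10.3 (quartiles 8.19 and 12.7). The 2530 UARs with a peak in another type were wider, with a median of 2100 bp, and held stronger basal peaks, with a median fold of 17.0 (14.0 and 20.0). The selection of the list favours this direction, since a UAR had to be more accessible in basal cells than in the other types. The strongest basal peak was also taken over more peaks there: 1947 of the 2530 held a single basal peak, against 2367 of the 2614. With lists taken whole, fMaSC was the most frequent partner: 937 UARs had an fMaSC peak as the only other peak, against 169 with LP alone and 93 with ML alone. Basal peaks outside UARs had the same order, with 11497, 2849 and 2049. The fMaSC list is also the longer one, with 79910 peaks against 60030 for LP. These lists cover 48.1 and 47.5 Mb, so LP peaks are wider on average. With the 30015 strongest peaks of each list, 11.2% of UARs had an fMaSC peak and 11.1% an LP peak, and where a peak had to cover 50% of the UAR, LP (2.70%) passed fMaSC (1.42%). Peaks in all 3 other types were present in 676 UARs, and there the basal fold was highest, with a median of 19.2.

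**Figure D3:**
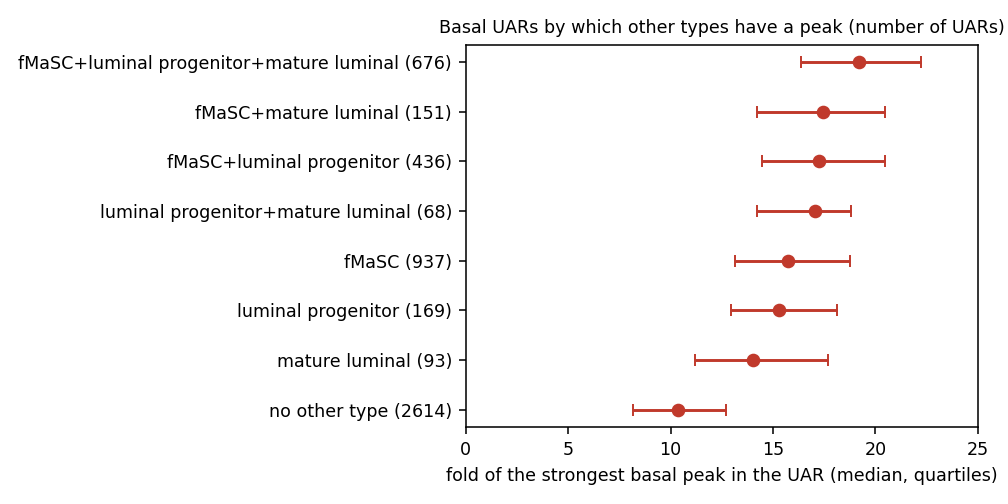
Deposited fold of the strongest basal peak in a UAR (horizontal axis; points are medians, bars run from the lower to the upper quartile) for each combination of other cell types that had a peak there, with the number of UARs in brackets. UARs with no other type lie lowest, at a median of 10.3, and those with peaks in all other types highest, at 19.2. The selection of the list favours this order.

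By type, 42.8% of UARs (interval 41.4 to 44.1%) overlapped an fMaSC peak, 26.2% (25.0 to 27.4%) an LP peak and 19.2% (18.1 to 20.3%) an ML peak. Over all basal peaks the shares were 64.5%, 53.7% and 45.2%, and 75.2% overlapped a peak of any other type, against 49.2% of UARs. The selection of the list fixes this direction. Across chromosomes, the share of UARs with another type's peak ran from 25.0% to 56.4%.

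Where another type had a peak in a UAR, it nearly always shared at least 1 bp with a basal peak. Basal peaks covered a median of 71.4% of the UARs with another type's peak, which favours such overlap. Of 2657 fMaSC peaks in UARs, 2644 (99.5%) overlapped a basal peak, as did 1560 of 1567 LP peaks (99.6%) and 1094 of 1113 ML peaks (98.3%). The other types' peaks there were narrow. They covered a median of 23.1% (fMaSC), 27.3% (LP) and 21.9% (ML) of the UARs that held them. Over the whole genome, 79910 fMaSC peaks covered 48.1 Mb, 60030 LP peaks 47.5 Mb and 61584 ML peaks 43.9 Mb. The 80294 basal peaks covered 70.4 Mb, so narrower peaks in the other types were not particular to UARs. Taking the strongest peak of a type in each UAR, the median fold was 7.09 over 2200 UARs with an fMaSC peak, 6.24 over 1349 with an LP peak and 6.97 over 988 with an ML peak. That strongest peak was below the median of its own list in 54.9%, 57.3% and 65.2% of these UARs. For basal cells, counted in the same way over 5142 UARs, this was 10.9%.

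UARs with peaks in all 3 other types were found mainly at low scores. Of the 1286 UARs with the lowest scores (218 to 946), 34.1% had peaks in all 3 other types, against 1.17% of the 1286 with the highest. A peak in any other type showed no such order: from the lowest to the highest 1286, the shares were 58.1%, 41.0%, 45.5% and 52.2%. The 3 lowest-scoring UARs were such shared sites. At chr4:138907001-138909300 the fold was 18.1 in basal cells, 11.4 in fMaSC, 9.35 in LP and 9.96 in ML. At chr9:64807801-64809500 it was 15.3, 10.6, 7.27 and 9.96 in the same order, and at chr4:55492601-55494500 it was 17.9, 9.88, 9.15 and 11.2. Regions outside the list were not given scores in the sources used here. Whether the score set the limit of the list is not known. The 1286 UARs of highest score had a median basal fold of 16.2, against 12.5 in the 1286 lowest and 11.2 in the 1286 above those, so score and fold did not order UARs alike.

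An infinite score was written for 19 UARs, on 11 chromosomes. Their widths ran from 1600 to 11700 bp and their basal folds from 11.4 to 34.9. Ordered by basal fold, the leading one was chr4:69282401-69285000, with a fold of 34.9 in basal cells, 12.1 in LP and 4.81 in fMaSC and no ML peak. The next, chr18:60827801-60831200, had a fold of 30.8 in basal cells and a weak LP peak of 4.16. The third, chr14:77883901-77885900, had a basal fold of 30.4 and no peak in another type, as was also the case at chr8:25474401-25476400 (24.6) and chr12:56107801-56110000 (24.1). At chr13:47050301-47052100 a basal fold of 27.8 stood over an ML peak of 4.98 with no other peak. At chr5:136104601-136113200, a UAR of 8600 bp, all types had strong peaks, with folds of 27.6 in basal cells, 18.5 in fMaSC, 14.1 in LP and 17.2 in ML. LP peaks were also present at chr4:64254801-64257200 (basal 24.6, LP 4.99) and chr14:31030101-31032200 (basal 23.9, LP 7.90). The 2 UARs without a basal peak, chr3:104122701-104123900 and chr19:58262801-58264000, had no peak of any normal type.

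Some UARs were at the same time less accessible in one other type. A URR of mature luminal cells overlapped 34 basal UARs (0.661%), while 1.42% of all basal peaks did so. That is 3.31% of the 1028 ML URRs. The lists that chose these 34 sites fix high basal and low ML accessibility there. Folds of fMaSC and LP sit on different backgrounds and set no order between these types. Basal folds ran from 14.0 to 28.0, and their median of 19.8 was above 88.7% of the basal list. All 34 had an fMaSC peak (range 6.08 to 17.7), whose median of 10.6 was above 67.6% of the fMaSC list. All 34 also had an LP peak (range 4.78 to 15.6), whose median of 8.21 was above 60.8% of the LP list, and 32 had no ML peak. The highest score among them was at chr10:21378801-21380200, with folds of 16.6 in basal cells, 8.61 in fMaSC and 7.90 in LP. At chr9:56015001-56016700 the folds were 24.8, 11.4 and 8.11.

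The URRs of other types held few basal UARs. Of 27 LP URRs, 2 overlapped a basal UAR (0.0389% of UARs, beside 0.0374% of all basal peaks), and neither had an LP peak. At chr2:109531601-109538300 the fold was 23.1 in basal cells, 14.9 in ML and 10.1 in fMaSC, and at chr2:68711101-68713000 it was 19.6, 12.5 and 7.60. An fMaSC URR overlapped 1 basal UAR (0.0194%, beside 0.345% of all basal peaks), at chr8:97685801-97687400, with folds of 24.1 in basal cells, 14.7 in ML and 13.7 in LP and no fMaSC peak. At all 3 of these sites the remaining 2 types had a peak as well. No basal UAR lay in a UAR of another type, which follows if each list holds regions more accessible in its type than in the others.

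Basal URRs were few and were strong sites of all 3 other types. Their widths ran from 900 to 4800 bp with a median of 1600 bp. All 71 overlapped a peak of fMaSC, LP and ML, with median folds of 13.7, 12.9 and 14.9. Folds were below the median of the list at 3, 5 and 4 of the 71 URRs in these types. A basal peak was present in 24 URRs (33.8%, interval 23.0 to 46.0%), while 93.4% of the 30339 merged regions with peaks in all 3 other types had one. These basal peaks were small, with a median fold of 5.50 and a median cover of 19.6% of the URR, and none covered 50% or more of its URR. At the centre of the URR a basal peak was present in 14.1% of cases, against 90.1% for fMaSC, 97.2% for LP and 93.0% for ML.

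URRs with a basal peak had higher folds in the other types than those without. The selection of the list favours this direction, since a URR had to be less accessible in basal cells than in the other types. URRs with a basal peak were also wider, with a median of 1950 bp against 1500 bp. In the 24 with a basal peak the median fold was 19.2 in fMaSC, 17.6 in LP and 20.8 in ML, against 11.9, 11.0 and 12.7 in the 47 without one. The URR of highest score was chr4:73434101-73437500, with folds of 28.3 in LP, 27.6 in ML, 11.6 in fMaSC and 4.74 in basal cells. At chr3:132895701-132899100 the folds were 26.8 in LP, 24.1 in fMaSC, 20.7 in ML and 5.60 in basal cells. No basal peak was present at the other 3 of the 5 highest-scoring URRs. Chr8:24001101-24002500 had folds of 14.9 in ML, 14.3 in LP and 7.60 in fMaSC. At chr10:60196101-60197700 they were 12.2, 14.1 and 12.9, and at chr10:37169301-37170400 they were 14.4, 6.65 and 14.7. No basal URR overlapped a UAR of another type (0 of 71, interval 0 to 5.06%). The share over comparable regions was not computed, so this count does not set URRs apart. No basal URR overlapped a URR of another type either, which follows if each URR list holds regions less accessible in its type than in the others.

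Basal UARs had another UAR nearby more often than other basal peaks did. With a gap of at most 10 kb between neighbours, 1229 UARs (23.9%, interval 22.7 to 25.1%) lay in 538 runs of 2 or more, and 7 runs held 6 or more. Of the 74137 basal peaks outside UARs, 9.40% (9.20 to 9.62%) had a UAR within 10 kb, and of the 73559 more than 1 kb from any UAR, 8.69% did (8.49 to 8.90%). The longest run, with 8 UARs over 58.1 kb, was chr8:64018401-64076500, where 5 of the UARs had no peak in another type and none had an ML peak. Runs of 7 lay at chr1:74044501-74096900, chr1:135813901-135863100, chr11:98941701-98972400 and chr19:34320001-34359800. Runs of 6 lay at chr13:56387301-56432900 and chr18:61810001-61855400. The last was mostly shared, with fMaSC peaks in 5 of its 6 UARs and a basal fold of at least 12.5 in each. At chr19:34320001-34359800, by contrast, 5 of 7 UARs had no other peak and basal folds ran from 4.96 to 18.97.

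UARs in runs resembled single UARs in strength. The median basal fold was 13.1 for 3915 single UARs, 14.0 in runs of 2 and 13.1 in runs of 3 or more, and a peak of another type was present in 48.6%, 51.2% and 50.4%. Among 1 Mb windows, the fullest were chr7:118836400-119836399 and chr11:75377450-76377449, each with 22 UARs, and chr4:137029850-138029849 with 20. On chromosome 7, 25 of the 114 basal peaks in the window overlapped a UAR, on chromosome 11 this was 31 of 104 and on chromosome 4 it was 24 of 113. No URR had another within 10 kb, and 2 of 71 had one within 50 kb (2.82%, interval 0.343 to 9.81%). No background share was computed for so few regions, so these counts do not show whether URRs are clustered or spread.

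UARs of other types lay near slightly fewer basal UARs than other basal peaks. No basal UAR overlapped a UAR of another type, while basal peaks outside basal UARs may lie inside one. This favours the lower share at basal UARs, and peaks inside such UARs were not removed. An ML UAR was present within 50 kb of 14.8% of basal UARs (interval 13.8 to 15.8%) and of 17.6% of basal peaks outside UARs (17.3 to 17.9%). For fMaSC UARs these shares were 3.40% (2.92 to 3.93%) and 4.81% (4.65 to 4.96%). URRs were rarely near UARs of their own type, though the merged regions set beside them may, unlike URRs, lie inside a UAR. A basal UAR lay within 50 kb of 6 of 71 URRs (8.45%, 3.16 to 17.5%), compared with 27.0% (26.5 to 27.5%) of the merged regions with peaks in all 3 other types. An ML UAR lay within 50 kb of 18 URRs (25.4%, 15.8 to 37.1%), against 20.0% (19.6 to 20.5%) of those regions.

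Chromosome X held few UARs for its basal peaks. Of 1552 basal peaks on X, 33 (2.13%, interval 1.47 to 2.97%) overlapped a UAR, compared with 7.78% on the autosomes. Single autosomes lay between 6.16% on chromosome 3 and 9.69% on chromosome 11. The median fold of X peaks was 7.76 and that of autosomal peaks 8.19. Among basal-only peaks the shares were 7.62% (4.99 to 11.0%) on X and 17.4% (16.8 to 17.9%) on autosomes. Among basal-only peaks with a fold of at least 10, they were 77.8% (52.4 to 93.6%, 14 of 18) and 79.7% (77.8 to 81.4%). X thus held 18 such strong basal-only peaks, and most of them were UARs. In ML, 3.29% of X peaks (2.40 to 4.40%) and 6.18% of autosomal peaks lay in an ML UAR, and in fMaSC 1.36% (0.874 to 2.02%) and 1.71% in an fMaSC UAR. In LP, 3 of 1368 X peaks (0.219%, 0.0452 to 0.640%) and 0.592% of autosomal peaks lay in an LP UAR.

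**Figure D4:**
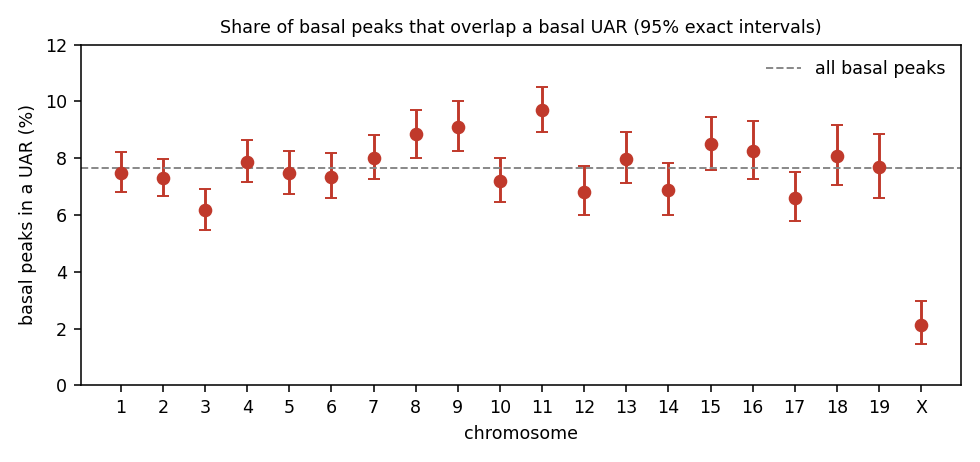
Share of basal peaks that overlap a basal UAR (vertical axis, percent) for each chromosome (horizontal axis); bars are 95% exact intervals and the dashed line is the share over all basal peaks, 7.67%. Chromosome X lies at 2.13%, below every autosome, and chromosome 11 highest at 9.69%.

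The PY230 lists came from samples that played no part in choosing the basal regions. SOX10 is an HMG-box transcription factor best known from the neural crest, and the lists hold 15108 regions closed and 3208 regions open in SOX10-high tumour cells. Closed regions overlapped 203 basal UARs (3.95%, interval 3.43 to 4.51%) and 6.03% of all basal peaks. Open regions overlapped 43 UARs (0.836%, 0.606 to 1.12%) and 1.29% of all basal peaks. UARs are wider than peaks, with medians of 1700 and 678 bp, which favours overlap. Among basal peaks at least as wide as the median UAR, 3.65% were closed and 0.532% open, so the order against UARs turned with the width of the background.

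Closing was most frequent at UARs with a mature luminal peak. Of 988 such UARs, 140 were closed (14.2%, interval 12.1 to 16.5%), and of basal peaks outside UARs with an ML peak, 11.5% were (11.1 to 11.8%). Without an ML peak the shares were 1.52% (1.17 to 1.94%, 63 of 4156 UARs) and 1.48% (1.37 to 1.61%). The order of UARs and other basal peaks in each class turned with the peaks taken. Strong basal peaks outside UARs, at or above the median fold of peaks in UARs, were closed in 6.16% of cases (5.82 to 6.52%) with an ML peak and in 1.84% (1.42 to 2.34%) without one. For peaks at least as wide as the median UAR these shares were 3.20% (2.81 to 3.62%) and 2.2% (11 of 500). By pattern of other peaks the order went both ways. Where LP and ML but not fMaSC had a peak, 8 of 68 UARs were closed (11.8%, 5.22 to 21.9%), beside 23.9% (22.5 to 25.4%) of basal peaks outside UARs. With ML alone these shares were 25.8% and 32.1%. They were 29.8% and 25.7% with fMaSC and ML, and 9.32% and 7.23% with all 3 other types. UARs with no peak in another type were closed in 25 of 2614 cases (0.956%, 0.620 to 1.41%), against 1.51% of all basal-only peaks and 1.60% (1.42 to 1.81%) of those outside UARs.

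Opening was most frequent at UARs with an LP peak. Of 1349 such UARs, 27 were open (2.00%, interval 1.32 to 2.90%), beside 1.67% (1.55 to 1.80%) of basal peaks outside UARs that had an LP peak and 0.852% (0.729 to 0.988%) of the strong ones among them. Without an LP peak, 16 of 3795 UARs were open (0.422%, 0.241 to 0.684%), beside 0.898% (0.798 to 1.01%) of other basal peaks and 1.10% (0.674 to 1.69%) of strong ones. Of basal peaks outside UARs at least as wide as the median UAR, 0.495% (38 of 7673) with an LP peak were open. Without an LP peak, 0 of 207 such wide peaks were open (0 to 1.77%). UARs with no peak in another type were open in 11 of 2614 cases (0.421%, 0.210 to 0.752%), beside 0.717% of all basal-only peaks. UARs with an ML peak were open in 6 of 988 cases (0.607%, 0.223 to 1.32%), beside 0.367% of all basal peaks with one. UARs without an ML peak were open in 0.890% of cases (0.628 to 1.23%), beside 2.21% (2.07 to 2.36%) of other basal peaks without one. The gap was wider against strong peaks of that class, of which 4.14% (3.50 to 4.85%) were open, and against those at least as wide as the median UAR, with 4.60% (2.94 to 6.82%). UARs and other peaks without an ML peak differ in make-up: 2614 of 4156 and 16511 of 38896 had no peak in any other type. In that group 0.421% and 0.763% were open. With fMaSC alone the shares were 0.534% and 1.37%, with LP alone 3.55% and 4.28%, and with both 3.44% and 5.66%. At a fold of at least 10, 1525 of 1915 basal-only peaks lay inside UARs, which leaves them out of the strong class outside.

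**Figure D5:**
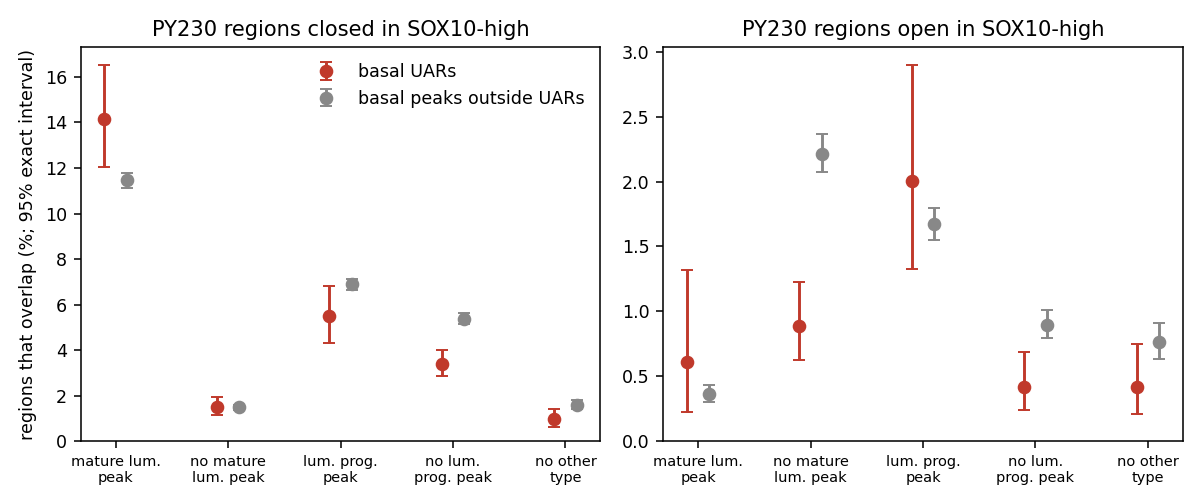
Share of basal UARs (red) and of basal peaks outside UARs (grey) that overlap PY230 regions closed (left) or open (right) in SOX10-high cells, split by which other normal type had a peak there; bars are 95% exact intervals and the vertical axes (percent) differ in scale. Closed shares stand at 14.2% and 11.5% with an ML peak and near 1.5% without, and open UARs without an ML peak lie at 0.890% against 2.21%. UARs and other peaks without an ML peak differ in how often any other type had a peak.

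For URRs, 8 of 71 were closed in SOX10-high cells (11.3%, interval 4.99 to 21.0%), beside 8.01% of the merged regions with peaks in all 3 other types, and 1 was open (1.41%, 0.0357 to 7.60%), beside 0.504%. The closed URR of highest score was chr10:37169301-37170400. The open one was chr4:104291601-104292700, with folds of 13.5 in LP, 10.5 in ML and 7.85 in fMaSC and no basal peak. The other types' UARs differed among themselves: 83.1% of ML UARs were closed and 0.0305% open. For LP UARs these shares were 0.327% and 29.7%, and for fMaSC UARs 0.736% and 7.61%. None of the 10 leading basal UARs was in either PY230 list. Over all basal UARs, 3.95% were closed and 0.836% open, so 10 regions are too few to set the leading ones apart.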

How the data were processed

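ATAC-seq regions of 8 normal samples (2 for each of 4 cell types) and 6 PY230 samples were used. The submitters' processing notes name MACS2 2.1.1 and SICER, the aligner Bowtie 0.12.8 and the mm9 build. The fold, a ratio of enrichment over background, was deposited by the authors for peaks called on both samples of a type together at a q-value of 0.001, per the list names. The score of each UAR, URR and PY230 region was deposited by the authors, and its scale and calling are not given in the sources used here. Treatment of duplicates, repeats and Tn5 offsets is likewise not given. Peaks in repeats may remain.

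Edges of grid-based lists were moved by 1 base to 1-based positions, and mitochondrial peaks were left out. Overlap means 1 shared bp. Intervals are 95% exact (Clopper-Pearson), also for a count of 0. The regions are not independent replicates and no test was made, since each list pools its samples. Named regions are the 10 UARs and 5 URRs of highest score (ties by basal fold), the 3 UARs of lowest score, the 3 densest windows and UARs without a basal peak. Runs of 6 or more, UARs inside other types' URRs and the open URR were singled out after their values were seen. Regions, lists and alternatives were chosen with earlier results of these data known. Gene lists and motifs listed for an mm9 annotation were not tested. Computations ran in Python 3.11.15 with pandas 2.3.3 and scipy 1.17.1. Overlaps were tested on simulated data against bedtools 2.31.1.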

Additional observations from a re-analysis of the deposited data

Results flagged for a closer look

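The basal peak list held 3 mitochondrial peaks, which no comparison used. Each of the lists of the other types held 3 as well. They stood out because they are signal outside the nuclear regions. The strongest basal one had a fold of 85.6, above the highest nuclear fold of 73.7 in the basal list.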

How the results depend on the processing

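All values rest on pooled lists, so no sample could be left out, and no paired analysis was possible because each list combines both samples of its type. The cause of a change with a setting was not tested. The share of UARs with a peak in another type (49.2%) was 3.58% when 50% of the region had to be covered, 40.6% with every region set to 500 bp, 17.98% with the 30015 strongest peaks of each list and 23.8% with peaks at or above the median fold. In that order it was 1.42%, 33.7%, 11.2% and 19.3% for fMaSC, 2.70%, 20.6%, 11.1% and 11.2% for LP, and 0.603%, 13.5%, 6.38% and 6.69% for ML, so LP passed fMaSC at 50% cover. URRs with a basal peak (33.8%) came to 0% at 50% cover, 1.41% with the strongest peaks and 2.82% with peaks at or above the median fold. Closed UARs (3.95%) came to 2.197% at 50% cover and 3.23% at 500 bp. Without a peak in another type, UARs were closed in 0.956% and open in 0.421%. The closed share of background basal peaks (6.03%) was 5.46% for peaks of high fold, 1.51% for basal-only and 3.65% for wide peaks, and the open share (1.29%) was 0.874%, 0.717% and 0.532%. For peaks outside UARs, the closed share with an ML peak (11.5%) was 3.20% for wide and 6.16% for strong peaks, and the open share without one (2.21%) was 4.60% and 4.14%. The median fold in UARs was 1.56 times that of other basal peaks and 2.33 times that of other basal-only peaks. UARs with a neighbour (23.9% at 10 kb) came to 15.1% at 5 kb, 53.3% at 50 kb and 22.2% after merging within 500 bp. The share of X peaks in UARs was 0.273 times the autosomal share, 0.439 times among basal-only peaks and 0.976 times among strong basal-only peaks. An ML UAR lay within 100 kb of 25.9% of UARs. Alternatives on X peaks, on peaks outside UARs (also as background for neighbouring UARs), on UARs without another peak and on 100 kb were chosen after seeing the data. Restricting to autosomes and merging within 500 bp moved no overlap share with peaks or PY230 regions beyond its counting interval, and the 34 UARs in ML URRs numbered 34 at each of the 4 settings. Gene and motif alternatives were not run.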
